A study of Mus musculus with 12 samples.

Results

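Cells of the mouse HL-1 line in which WDR62 was put back after a knockdown (RE, 4 libraries) were compared with vector control cells of the same line (CON, 4 libraries). The comparison takes in 8 of the 12 libraries of the series, chosen by their labels. HL-1 is a line derived from mouse atrial heart muscle, grown in medium with fetal bovine serum, and the series measured its RNA to relate gene expression to Wdr62. CON cells carried the vector viruses lentiCRISPRv2 and pCDH without an insert. The remaining 4 libraries (KD) came from cells infected with virus for a guide RNA against Wdr62, and RE cells are KD cells given a second virus, built on pCDH, that expresses wild-type WDR62 with a flag tag. The guide is thus shared by KD and RE, whereas the labels mention pCDH in describing CON and RE but leave it out of KD. The treatment labels of KD and RE end in a number that goes up by 1 from library to library (WDR62 to WDR65 in RE), while their genotype labels and the protocol give 1 treatment per group; the 4 libraries were taken as replicates on that reading. The labels do not say whether the cells are 1 clone or a pool, nor that replicate libraries stem from separate cultures; the p-values reflect the scatter of these libraries, and that scatter may be technical only. The question was which genes remained different from control after WDR62 had been put back.

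WDR62 is a WD40-repeat protein that sits at the centrosome and the poles of the mitotic spindle and also acts as a scaffold of the JNK kinase cascade, and mutations of the human gene cause primary microcephaly. ATF4, whose target genes recur below, is a transcription factor translated preferentially when cells lack amino acids or carry unfolded protein in the endoplasmic reticulum, and it turns on genes for amino acid import, amino acid synthesis and tRNA charging. Its binding site joins parts of a C/EBP site and an ATF site.

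Transcript levels are TPM (relative transcript abundance, corrected for length and summing to 1000000 in each library), and a fold change is a difference of group means of log2(TPM + 1), given with its standard error (SE). Values listed for libraries run from library 1 to library 4 of a group. A gene is said to have risen or fallen when its adjusted p in limma was below 0.05. Between 14060 and 14733 genes were above 0 in a library. CON 4, RE 1 and RE 3 stood apart. In the fifth of genes with the longest transcripts their median deviation from the gene mean was -0.82, -0.71 and -0.99, whereas CON 1 to CON 3 ran from 0.46 to 0.68 and RE 4 and RE 2 stood at -0.12 and -0.10. The plot of long and short transcripts by library shows this split.

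**Figure D1:**
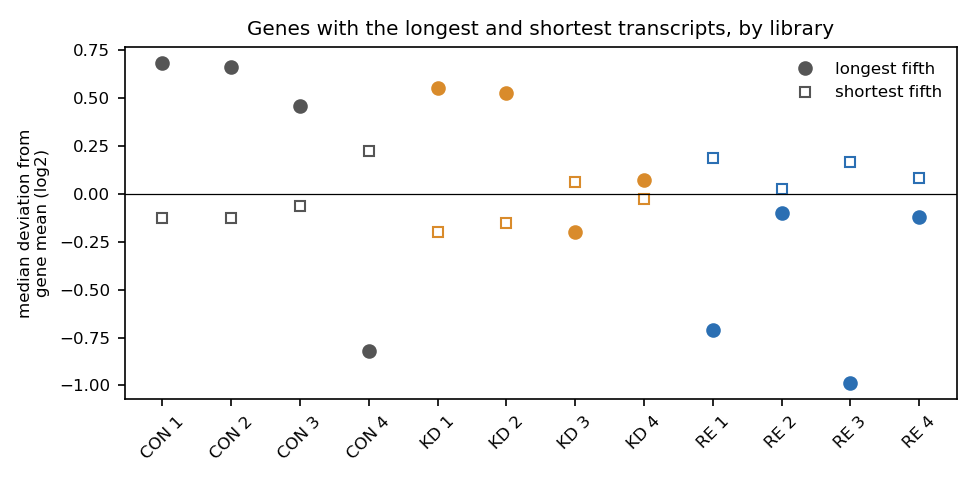
Median deviation from the gene mean on the log2(TPM + 1) scale (y axis) in each of the 12 libraries (x axis), for the fifth of genes with the longest transcripts (filled circles) and the shortest (open squares). CON 4 at -0.82, RE 1 at -0.71 and RE 3 at -0.99 are the lowest of the filled circles.

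Several defining heart muscle markers were absent or near 0. Of 17 cardiomyocyte markers, 9 had a mean below 1 TPM, and Actc1 (cardiac actin), Myl7 (atrial myosin light chain) and Tbx20 were listed at 0 in all 12 libraries. Myh6, the cardiac myosin heavy chain, reached at most 0.209 TPM and Nppa, the atrial natriuretic peptide, at most 0.443 TPM. Troponin T (Tnnt2) was present at 14.4 to 26.7 TPM in CON and 14.5 to 24.8 TPM in RE. Nkx2-5, a transcription factor of the heart lineage, had 4.7, 4.44, 3.6 and 8.5 TPM in CON and 19, 15.1, 26.7 and 12.9 TPM in RE, and rose by 1.63 ± 0.27 (adjusted p = 0.00309). It was the only one called of the 8 cardiomyocyte markers tested. The sum of the 17, most of it Gja1, was 668 to 1080 TPM in CON and 585 to 997 TPM in RE. The summed level of 9 fibroblast markers was 2752 to 4265 TPM in CON against 1560 to 2525 TPM in RE. Most of it was Col3a1, with 2148 to 3455 TPM in CON and 1190 to 2007 TPM in RE. With a correction for transcript length the fold changes of Col3a1 and Col1a2 were -0.21 and 0.0. Neither was then called (limma adjusted p = 0.559 and 0.991), whereas Col1a1 and Dcn were still called as lower (0.0267 and 0.00011). Of the 6 markers tested 4 were lower, against 3.63% of all tested genes, and 3 of the 9 had a mean below 1 TPM. Tcf21 and Lum were listed at 0 in every library. In a wider fibroblast list, 5 of 11 tested genes fell and 1 rose, against 3.63% and 2.7% of all tested genes. The number that fell was 3 after median scaling (4.25% of all tested genes) and 7 without CON 4 (42% of all). It was 3 without CON 1, CON 2, CON 3, RE 1 or RE 3, each of which ended the calls of Col1a2 and Col3a1. With the length correction 4 fell and 2 rose, against 5.14% and 7.64% of all tested genes. Of the leukocyte markers Adgre1 was listed at 0 in every library and Ptprc in all but RE 4 (0.0434 TPM), while Cd14 had 130 to 174 TPM in CON and 161 to 247 TPM in RE. Of the 6 endothelial markers none reached a mean of 1 TPM. The part of any of these cell types in the results was not tested, and in bulk RNA fewer cells of a type and less RNA per cell cannot be told apart.

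Wdr62 itself remained low in RE. The gene (chromosome 7, 30240138 to 30280419 of GRCm38, minus strand, ENSMUSG00000037020.16) had 7.45, 6.61, 6.5 and 3.38 TPM in CON and 1.47, 0.772, 0.826 and 1.99 TPM in RE. Every RE library lay below every CON library, and the difference was -1.62 ± 0.25 (limma adjusted p = 0.00147; exact two-sided permutation p = 0.0286, the smallest that 4 against 4 can give). KD had 1.4, 0.944, 1.37 and 0.881 TPM, and RE minus KD came to 0.05 (95% interval -0.48 to 0.58, adjusted p = 0.895). The labels do not give the species or the codons of the WDR62 construct, so these values may not count its transcripts and they do not measure the protein.

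Of 11774 genes tested, 745 (6.33%) differed between RE and CON: 318 were higher in RE (2.7%) and 427 lower (3.63%). The 4 RE libraries lay above all 4 CON libraries for 525 genes (4.46%) and below them for 560 (4.76%). The median of all fold changes was -0.27, and when libraries were scaled by the median of ratios it moved to 0.01 and the split became 595 higher (5.05%) and 500 lower (4.25%), so that 54.3% of the changed genes were higher in place of 42.7%. Among the fits that leave out 1 library the total ran from 417 to 6219: it was 6219 without CON 4 and 433, 432 and 417 without CON 1, CON 2 and CON 3. Weighting the libraries by their scatter (array weights) gave 6386. Without CON 4, 42% of all tested genes were lower in RE and 10.8% higher, and every count below for that setting is to be read against these shares; without CON 1, CON 2 or CON 3 the shares were 2.17% to 2.25% and 1.37% to 1.44%. In KD against CON, with the same control libraries, 777 genes were higher (6.6%) and 425 lower (3.61%). In RE against KD, 22 were higher (0.187%) and 101 lower (0.858%). Counts of list members below are to be read against the shares of the comparison they come from.

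The targets of ATF4 and the genes of amino acid supply were mostly lower in RE. Of 47 tested members of this list, 32 fell and none rose, with a median fold change of -1.38, against 3.63% of all tested genes lower and an overall median of -0.27. After median scaling 32 fell and none rose, with a median of -1.07. The number that fell was 42 without CON 4, 24 without RE 1 or without RE 3, and 21, 20 and 20 without CON 1, CON 2 and CON 3. Without CON 4, RE 1 and RE 3 together it was 42, with 1 higher, at a background of 24% lower and 8.13% higher. In KD, 16 members were lower than CON and none higher, with a median of -0.94, and in RE against KD none of the 47 passed the limma test in either direction.

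The promoters of 4 members are shown. They hold a match to the letters of the ATF4 site, and these genes cover the regulators, the enzymes and the transporters of the list. Each is the 250 bases before a RefSeq transcription start, written 5′ to 3′ on the gene's strand, from the RefSeq promoter table for GRCm38.p6. Capitals mark each match to TGATGNAA on either strand (TTNCATCA when read from the other).

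Slc7a11, chr3:50443614-50443863, minus strand: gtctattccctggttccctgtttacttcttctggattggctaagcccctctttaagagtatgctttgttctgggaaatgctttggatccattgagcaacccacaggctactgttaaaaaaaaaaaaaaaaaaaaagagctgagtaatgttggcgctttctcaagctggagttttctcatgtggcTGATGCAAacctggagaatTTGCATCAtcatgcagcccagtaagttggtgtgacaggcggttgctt
Atf3, chr1:191183334-191183583, minus strand: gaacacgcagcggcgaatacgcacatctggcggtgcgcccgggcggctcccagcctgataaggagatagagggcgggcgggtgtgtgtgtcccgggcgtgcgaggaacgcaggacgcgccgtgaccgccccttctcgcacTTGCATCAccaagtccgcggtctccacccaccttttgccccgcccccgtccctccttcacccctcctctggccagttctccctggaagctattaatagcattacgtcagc
Chac1, chr2:119350992-119351241, plus strand: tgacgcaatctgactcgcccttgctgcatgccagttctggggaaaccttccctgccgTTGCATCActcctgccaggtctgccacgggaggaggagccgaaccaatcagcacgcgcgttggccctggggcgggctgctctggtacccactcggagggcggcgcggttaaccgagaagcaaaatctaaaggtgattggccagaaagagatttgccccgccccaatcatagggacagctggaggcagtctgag
Asns, chr6:7693210-7693459, minus strand: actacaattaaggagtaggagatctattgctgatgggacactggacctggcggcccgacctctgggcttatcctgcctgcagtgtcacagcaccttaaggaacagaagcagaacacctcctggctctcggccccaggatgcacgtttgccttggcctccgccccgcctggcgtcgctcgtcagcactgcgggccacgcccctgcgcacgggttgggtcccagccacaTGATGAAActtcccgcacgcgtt

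The Slc7a11 promoter holds 2 matches, which begin 66 and 47 bases before the start. The match in Atf3 begins 110 bases, that in Chac1 193 bases and that in Asns 23 bases before it. Of the 32 members that fell, 24 had a promoter in the table, and 9 of these (37.5%) held the motif: Vldlr, Slc7a11, Atf3, Chac1, Fgf21, Asns, Tars, Nupr1 and Aars. Among members that did not pass the test, 2 of 13 (15.4%) held it. The motif occurred in 2.48% of the 8956 tested genes with a promoter of this length and in 3.91% of all 27025 genes in the table. Members were listed as ATF4 targets or amino acid supply genes, so a share above that of all genes may come from that choice. It gives no evidence on the falls in RE, and the part of the motif in them was not tested. A match describes the letters in this window and shows no binding.

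Among the transcription factors and stress regulators of this list, with which Chac1 (described below) was counted, 8 of 12 fell. Atf3, an ATF family factor induced by stress, had 41.8, 37, 29 and 12.1 TPM in CON and 2.8, 5.59, 2.85 and 2.7 TPM in RE, a change of -2.70 ± 0.35 (adjusted p = 0.000436). Trib3, a pseudokinase induced by ATF4, had 256, 271, 238 and 118 TPM in CON and 36.9, 75, 55.6 and 37.8 TPM in RE (-2.08 ± 0.31, adjusted p = 0.00135). All RE libraries of both genes lay below all CON libraries, CON 4 included. Atf4 itself had 1633, 1599, 1476 and 911 TPM in CON and 735, 738, 477 and 792 TPM in RE (-1.02 ± 0.22, adjusted p = 0.014); its call was lost without CON 1, CON 2 or CON 3 (adjusted p = 0.0552, 0.0558 and 0.0536) and with CON and RE fitted alone (0.0528). Atf5 fell by 1.16 on the log2 scale, and Ppp1r15a, the GADD34 subunit that directs dephosphorylation of the initiation factor eIF2 alpha, fell by 1.61. Ddit3, the stress factor CHOP, did not pass the test, with 1000, 966, 948 and 822 TPM in CON and 714, 744, 1134 and 540.2 TPM in RE (-0.30 ± 0.20, adjusted p = 0.3). Cebpb, Cebpg and Ddit4 did not pass it either.

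Of the 8 amino acid transporters 6 fell. Slc7a3, a carrier of cationic amino acids, had 10.7, 9.2, 11.1 and 7 TPM in CON and 0.405, 0, 0.0526 and 0.267 TPM in RE (-3.15 ± 0.18, adjusted p = 4.96e-07). Slc7a11, the cystine and glutamate exchanger, had 19, 21.2, 15 and 6.02 TPM in CON and 0.611, 0.955, 1.08 and 1.09 TPM in RE (-2.96 ± 0.31, adjusted p = 9.88e-05). Slc7a5, the LAT1 carrier of large neutral amino acids, had 188, 193, 175 and 53.1 TPM in CON and 28.2, 43.5, 18.2 and 34.4 TPM in RE (-2.16 ± 0.41, adjusted p = 0.00727). The groups did not overlap for any of these carriers, and Slc7a3 was below 0.5 TPM in every RE library. Slc1a5, a glutamine carrier, fell by 1.57, and Slc3a2, the heavy chain that pairs with Slc7a5 and Slc7a11, fell by 0.69 on the log2 scale (0.38 lower than CON after median scaling, where its call was lost).

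Of the 10 enzymes 6 fell. Asns, which makes asparagine, had 511, 604, 591 and 333 TPM in CON and 132, 244, 111 and 148 TPM in RE (-1.70 ± 0.27, adjusted p = 0.00225). Phgdh, the first enzyme of serine synthesis, had 57.1, 59.5, 76.1 and 98.4 TPM in CON and 30.8, 23.5, 24.6 and 20.7 TPM in RE (-1.49 ± 0.20, adjusted p = 0.000598). Shmt2, a mitochondrial enzyme of serine and one-carbon metabolism, fell by 1.48 and Psph, the last enzyme of serine synthesis, by 1.38 on the log2 scale. RE lay below CON for each of these genes. Cth, which makes cysteine, fell by 2.25, but RE 2 at 43.4 TPM reached CON 4 at 43.3 TPM. Psat1, the middle enzyme of serine synthesis, missed the threshold (-1.14 ± 0.36, adjusted p = 0.0878).

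Chac1, which breaks down glutathione, had 318, 238, 268 and 130.5 TPM in CON and 37.2, 98.4, 34.7 and 37.9 TPM in RE (-2.25 ± 0.40, adjusted p = 0.00449). Fgf21, a secreted stress hormone, had 7.52, 6.53, 5.73 and 6.93 TPM in CON and 0, 1.19, 2.18 and 0.161 TPM in RE (-2.18 ± 0.43, adjusted p = 0.00858). Vldlr, a lipoprotein receptor and an ATF4 target, had 10.2, 10.5, 10.4 and 5.23 TPM in CON and 0.0127, 0.14, 0.0797 and 0.0134 TPM in RE (-3.21 ± 0.20, adjusted p = 1.06e-06). The RE libraries lay below the CON libraries for all 3 genes, and for Vldlr KD was as low, at 0.0302, 0.173, 0.0593 and 0.0866 TPM. Of 12 tRNA synthetases 8 fell, from Tars (-1.64) to Sars (-0.81), and the groups were apart for 4 of them. Cars, for cysteine, had 192, 189.6, 194 and 132 TPM in CON and 75, 88.7, 74.9 and 77 TPM in RE (-1.14 ± 0.16, adjusted p = 0.000711). Gars, Wars, Eprs and Iars did not pass the test. The calls of Mars, Nars, Lars and Yars were lost with CON and RE fitted alone (adjusted p = 0.11, 0.0954, 0.0544 and 0.0567). They were also lost without CON 1, CON 2 or CON 3 (0.0513 to 0.157), and those of Mars and Nars without RE 1 or RE 3 (0.0806 to 0.136). The calls of Tars and Aars were lost with CON and RE fitted alone (adjusted p = 0.0905 and 0.104) and without CON 1, CON 2, CON 3, RE 1 or RE 3 (adjusted p of 0.0655 to 0.0937 and of 0.0801 to 0.114); that of Aars was also lost without KD 1 (0.0503) or KD 4 (0.0527), and that of Sars without CON 2 (0.0562) or CON 3 (0.059). After median scaling Sars and Nupr1 were not called (adjusted p = 0.0776 and 0.0752).

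**Figure D2:**
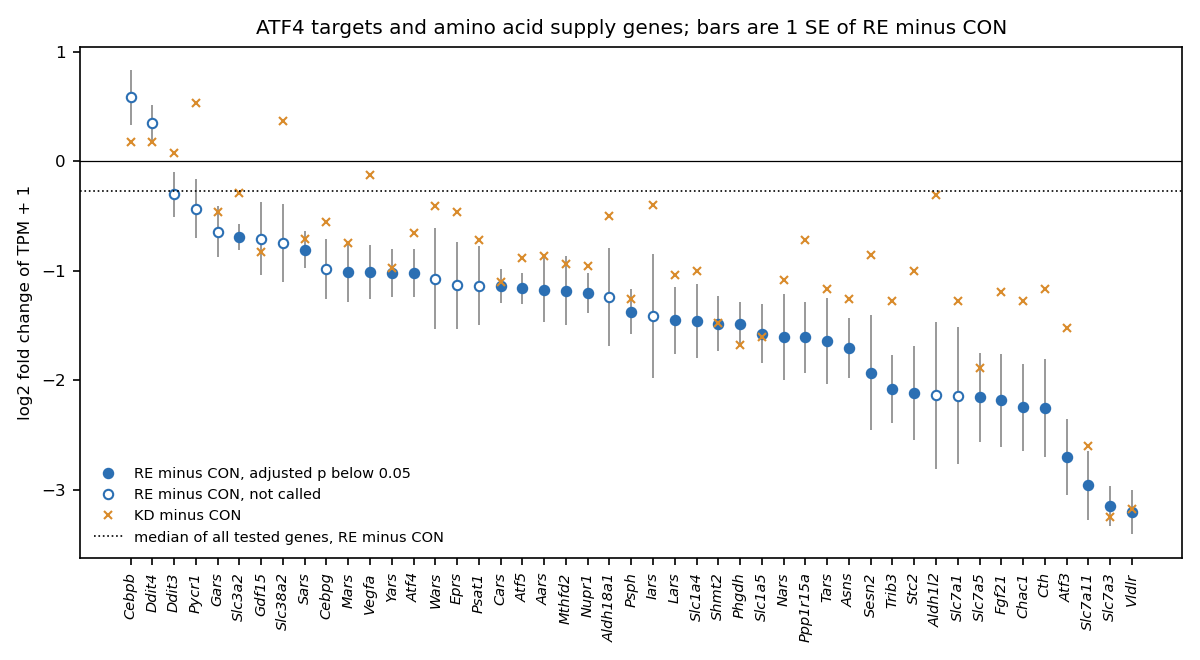
Fold change on the log2(TPM + 1) scale (y axis) of the 47 tested ATF4 targets and amino acid supply genes (x axis), as RE minus CON with bars of 1 SE (circles, filled where the adjusted p was below 0.05) and as KD minus CON (crosses). Of the circles, 32 are filled and all of these lie below 0; the dotted line marks the median of all tested genes at -0.27.

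Genes for secreted antimicrobial and acute phase proteins were mostly higher in RE. Of 17 tested, 11 rose and none fell, with a median fold change of 1.44, against 2.7% of all tested genes higher; after median scaling 11 rose, with a median of 1.67. Camp, the cathelicidin antimicrobial peptide, had 10.3, 9.17, 15.6 and 30.2 TPM in CON and 255, 272, 433 and 168 TPM in RE (4.10 ± 0.36, adjusted p = 2.04e-05). Hp, for the hemoglobin-binding protein haptoglobin, had 71.1, 83.7, 104 and 273 TPM in CON and 982, 2348, 4388 and 852 TPM in RE (3.90 ± 0.51, adjusted p = 0.000455). Every RE library exceeded every CON library for both genes, and CON 4 was the highest control each time. Lcn2, an iron-siderophore binding protein, had 40.2, 43.8, 72.5 and 464 TPM in CON and 659, 1240, 3600 and 532 TPM in RE (3.65 ± 0.73, adjusted p = 0.00986); RE 3 was the highest and CON 4 stood well above the other controls, and with CON and RE fitted alone the call was lost (adjusted p = 0.0511). KD levels were 146, 169.9, 264 and 218 TPM for Camp, 1436, 1465, 1051 and 1373 TPM for Hp and 1900, 1776, 1365 and 2354 TPM for Lcn2.

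Saa3, a serum amyloid A protein, had 1292, 1410, 2035 and 5311 TPM in CON and 8326, 11072, 33274 and 6290 TPM in RE (2.48 ± 0.50, adjusted p = 0.0106). Slpi, a secreted inhibitor of leukocyte proteases, had 1102, 1179, 1463 and 3751 TPM in CON and 6962, 7177, 13180 and 5610 TPM in RE (2.25 ± 0.37, adjusted p = 0.00251). For both genes the groups did not overlap and RE 3 was the highest library; with CON and RE fitted alone the call of Saa3 was lost (adjusted p = 0.0565). Orm1, an acute phase glycoprotein, rose by 2.49 ± 0.41 and Saa2 by 2.50 ± 0.54; their transcripts are 91.0% identical to Orm2 and 96.9% identical to Saa1, so reads may be divided between the copies. The call of Saa2 was lost without CON 2 (adjusted p = 0.0589) or CON 3 (0.0593) and with CON and RE fitted alone (0.0729). Of the serpin A3 cluster, which encodes protease inhibitors, Serpina3m had 0.78, 1.2, 0.997 and 1.08 TPM in CON, 15.2, 14.3, 11.3 and 16.1 TPM in KD and 3.81, 5.03, 4.71 and 3.52 TPM in RE (1.38 ± 0.18 for RE, adjusted p = 0.000413). It thus stood between CON and KD in every RE library. Serpina3n, Saa1, Saa4 and Orm2 were not called, and neither were Ptx3 (-0.97 ± 0.42, adjusted p = 0.162) and Cp (-0.48 ± 0.25, adjusted p = 0.215).

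The largest rise among the named genes was in H2-DMb2, a subunit of H2-DM, which loads peptide onto MHC class II molecules. It had 0.314, 0, 0.115 and 0.364 TPM in CON and 24, 49.8, 48.5 and 26.1 TPM in RE (4.93 ± 0.27, adjusted p = 3.32e-07). In KD it had 10.8, 11.4, 15.9 and 16.1 TPM, below every RE library, and RE exceeded KD by 1.33 ± 0.27 (adjusted p = 0.0409). Its neighbour H2-DMb1 on chromosome 17 had 0, 0.277, 0.516 and 0.371 TPM in CON and 11.9, 38.8, 23.9 and 16.6 TPM in RE (4.09 ± 0.32, adjusted p = 6.3e-06); the transcripts of the pair are 94.6% identical where they align, so the division between them is uncertain. H2-DMa, the partner subunit, had 6.13, 6.4, 7.03 and 11.4 TPM in CON and 24.8, 39.8, 53.7 and 18.7 TPM in RE (1.94 ± 0.31, adjusted p = 0.0022). Of 11 listed class II genes only 4 had enough expression to be tested, and Cd74, the invariant chain, missed the threshold (1.25 ± 0.45, adjusted p = 0.119). Of 13 class I presentation genes none rose and 3 fell. The number that fell was 1 after median scaling, and also 1 without CON 3, RE 1 or RE 4. Among the 3 was the peptide transporter Tap2 (-1.26 ± 0.16, adjusted p = 0.000407), whose call was lost with the length correction (-0.83, adjusted p = 0.0564).

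Of 29 cytokine, chemokine and NF-kB genes 5 rose and none fell (3 without CON 1, CON 2 or CON 3, and 8 without CON 4), with a median of -0.08. Nos2, the inducible nitric oxide synthase, had 3.07, 4.38, 5.54 and 8.7 TPM in CON and 28.4, 64.2, 42.2 and 43 TPM in RE (2.84 ± 0.31, adjusted p = 0.000121). Il1a, a pro-inflammatory cytokine, had 16, 12.3, 11.8 and 8.93 TPM in CON and 31.4, 91.9, 66.6 and 46.9 TPM in RE (2.10 ± 0.36, adjusted p = 0.00342). The RE libraries of both lay above all controls. Il1rn, the natural antagonist of that cytokine's receptor, rose by 1.45 ± 0.21. Il6 rose by 2.18 ± 0.47 (adjusted p = 0.0143), although CON 4 at 674 TPM exceeded RE 1 at 596 TPM, and its call was lost without CON 1, CON 2 or CON 3 (adjusted p = 0.0552, 0.0544 and 0.0537) or without RE 3 (0.0508), and with CON and RE fitted alone (0.0676). None of 36 interferon response genes passed the limma test in RE. At an unadjusted p below 0.05, 1 was higher and 7 lower, where 8.22% of all tested genes were higher and 20.2% lower. After median scaling 1 was called as higher. Without CON 4, RE 1 and RE 3 together, 1 was higher and 5 lower (8.13% and 24% of all). In KD against CON 9 were higher, against 6.6% of all tested genes.

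Of 28 chaperones and other unfolded protein response genes of the endoplasmic reticulum, 9 rose and none fell, against 2.7% of all tested genes higher. Their median was 0.36 (0.67 after median scaling). The number that rose was 13 without CON 4 and 5, 4 and 4 without CON 1, CON 2 and CON 3. It was 5 without RE 2 or RE 3. Sdf2l1, a component of a chaperone complex, had 44.2, 37.1, 50.02 and 195 TPM in CON and 271, 368, 544 and 209 TPM in RE (2.35 ± 0.46, adjusted p = 0.00855). Hspa5, the chaperone BiP, had 1375, 1423, 1355 and 1745 TPM in CON, 6621, 4722, 3421 and 5524 TPM in KD and 2297, 4561, 3480 and 2792 TPM in RE (1.11 ± 0.23, adjusted p = 0.0124). RE lay above CON in every library of both genes; after quantile normalization Hspa5 was not called (adjusted p = 0.0516). Syvn1, a ubiquitin ligase that clears misfolded proteins, rose by 0.88 ± 0.15, and Manf, a secreted stress protein, rose by 1.30 ± 0.26. In KD against CON 16 of the 28 were higher, against 6.6% of all tested genes.

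**Figure D3:**
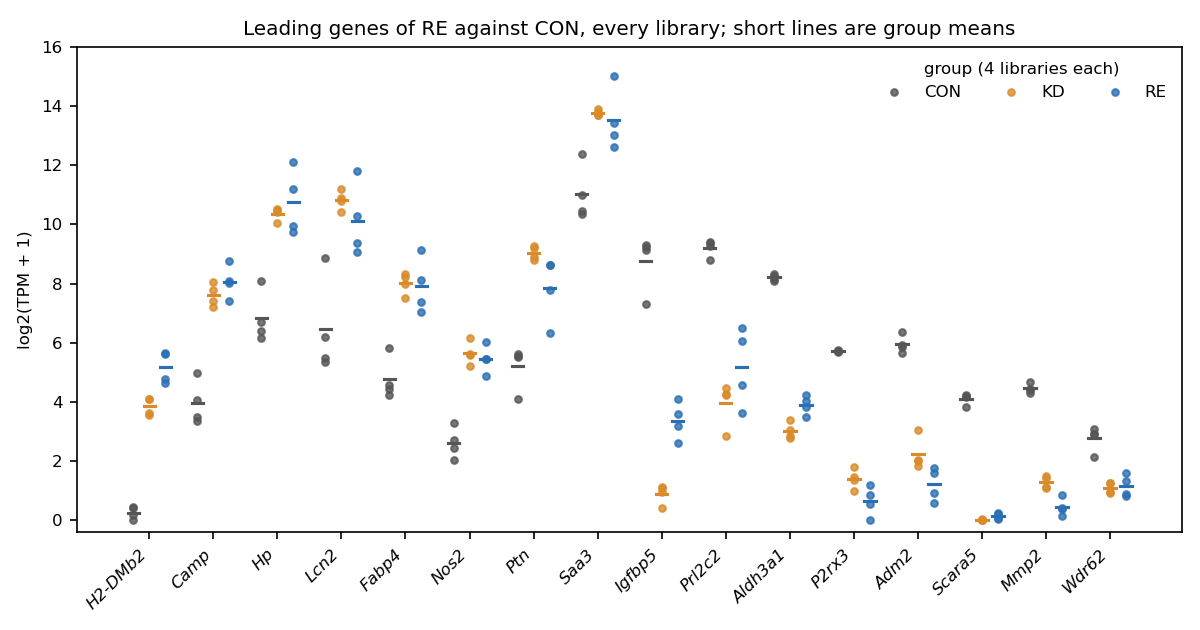
Level of 16 genes as log2(TPM + 1) (y axis) in every CON, KD and RE library (points; short lines are means of 4 libraries). The first 8 genes are higher in RE than in CON and the last 8 lower; H2-DMb2 runs from 0 to 0.364 TPM in CON and from 24.0 to 49.8 TPM in RE.

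Growth factor binding proteins and hormones made up several of the largest falls. Igfbp5, which binds insulin-like growth factors, had 565, 604, 624 and 158 TPM in CON, 1.14, 1.15, 0.317 and 0.917 TPM in KD and 5.1, 16.2, 11 and 8.03 TPM in RE. RE was below CON by -5.38 ± 0.44 (adjusted p = 9.4e-06) and above KD by 2.48 ± 0.44 (adjusted p = 0.0307), so it had moved toward control while remaining far below it. Igfbp2, a related binding protein, had 10.6, 11.1, 15.9 and 81.3 TPM in CON and 0.0966, 0.321, 0.299 and 0 TPM in RE (-4.17 ± 0.49, adjusted p = 0.000217). H19, an imprinted noncoding RNA beside Igf2, had 94, 78.2, 103 and 42.6 TPM in CON, 2.7, 3.37, 3.53 and 2.99 TPM in KD and 8.41, 12.8, 9.57 and 7 TPM in RE (-2.90 ± 0.27 against CON; 1.31 ± 0.27 above KD, adjusted p = 0.0426). Of 14 members of the IGF list 4 fell and none rose (8 fell without CON 4).

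The prolactin-family gene Prl2c2, which encodes a proliferin, had 676, 619, 656 and 443 TPM in CON and 88.7, 22.8, 11.2 and 64.9 TPM in RE (-4.03 ± 0.55, adjusted p = 0.000695). Its copy Prl2c3 had 269, 250.2, 239 and 154 TPM in CON and 15.2, 0.0018, 0.00195 and 11.8 TPM in RE (-5.88 ± 0.83, adjusted p = 0.000864). Both were far lower in every RE library, but their transcripts are 99.5% identical and the division between them is uncertain. Prl2c4, of the same family, rose by 1.75 ± 0.43 (adjusted p = 0.03), with groups that overlap, and lost its call without CON 2, CON 3, RE 2 or RE 4 (adjusted p = 0.106, 0.0574, 0.0724 and 0.0694), with a pseudocount of 0.1 (0.0564) and with CON and RE fitted alone (0.113).

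P2rx3, an ATP-gated cation channel, had 50.4, 53.1, 51.4 and 52.2 TPM in CON and 0, 1.28, 0.781 and 0.462 TPM in RE (-5.08 ± 0.25, adjusted p = 1.55e-07). The controls were close to one another, and KD had 1.72, 2.45, 0.965 and 1.58 TPM. Its exons overlap those of the antisense gene Ssrp1 by 12 bases, and Ssrp1 had a mean of 406 TPM in CON and 260 TPM in RE (-0.64, adjusted p = 0.126). Adm2, a peptide of the calcitonin family, had 57, 49.4, 60.2 and 82.2 TPM in CON and 0.482, 2.42, 1.99 and 0.893 TPM in RE (-4.75 ± 0.33, adjusted p = 2.31e-06). Aldh3a1, an aldehyde dehydrogenase, had 287, 308, 319.99 and 269 TPM in CON and 18, 10.3, 13 and 15.3 TPM in RE (-4.32 ± 0.19, adjusted p = 1.14e-07). No RE library of these genes came near a CON library. Cyp4f40, a cytochrome P450, had 28.6, 29.2, 30.6 and 18.6 TPM in CON and was listed at 0 in all 4 RE libraries.

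Other large falls with groups apart were those of Scara5, a ferritin receptor (-3.97 ± 0.15), Sulf1, a sulfatase that edits heparan sulfate (-4.24 ± 0.33), and Krt19, an epithelial keratin (-3.94 ± 0.28). Cacng1, a calcium channel subunit of skeletal muscle, fell by 3.41 and Apcdd1, a Wnt inhibitor, by 3.23 on the log2 scale. Rises outside the groups above were seen in Xlr3a, an X-linked gene of the lymphocyte-regulated family (3.67 ± 0.20), Fabp4, a fatty acid binding protein (3.15 ± 0.44), and Pex5l, a relative of the peroxisomal import receptor (2.72 ± 0.22). Ptn, the heparin-binding growth factor pleiotrophin, had 44.5, 45.5, 48.7 and 16.3 TPM in CON and 217, 396, 78.9 and 397 TPM in RE (2.64 ± 0.48, adjusted p = 0.00502). Lyz2, a lysozyme of myeloid cells (2.66 ± 0.29), and Hcar2, a receptor for niacin and hydroxybutyrate (2.63 ± 0.50), rose as well.

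Extracellular matrix genes moved in both directions. Mmp2, the gelatinase A, had 20.4, 20.3, 18.9 and 24.5 TPM in CON and 0.11, 0.806, 0.343 and 0.308 TPM in RE (-4.00 ± 0.19, adjusted p = 1.55e-07), and KD had 1.83, 1.65, 1.15 and 1.14 TPM. Timp3, an inhibitor of such proteases bound to matrix, had 84.9, 110.3, 90.02 and 43.9 TPM in CON and 8.88, 12.9, 7.64 and 15 TPM in RE (-2.75 ± 0.40, adjusted p = 0.00118). RE lay below CON throughout for both genes. Of 26 metalloproteinases and inhibitors 4 fell and none rose, of 18 basement membrane genes 3 fell and none rose, and each count was 15 without CON 4, where 42% of all tested genes were lower; 2 metalloproteinases or inhibitors fell without CON 3. With the length correction 3 of the 26 and 2 of the 18 fell (5.14% of all tested genes), and 1 and 2 rose (7.64% of all). The medians of both lists moved from -0.52 and -0.64 to 0.03 and 0.01. Of 29 proteoglycans, matricellular and elastic fibre genes 9 fell and 4 rose (15 fell without CON 4, and 2 rose without CON 1, CON 2, CON 3 or RE 1).

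Fn1, for fibronectin, had 2299, 2502, 2301 and 984 TPM in CON, 2402, 2376, 1255 and 1402 TPM in KD and 461, 772, 483 and 761 TPM in RE (-1.66 ± 0.33, adjusted p = 0.00908). It was also below KD, by -1.56 ± 0.33 (adjusted p = 0.0467), and KD differed from CON by -0.09 ± 0.33 (adjusted p = 0.926). Col1a1, a chain of type I collagen, had 108, 100.2, 102 and 78.3 TPM in CON, 64.4, 63.7, 61.8 and 41.8 TPM in KD and 21, 33.5, 28.6 and 26.5 TPM in RE (-1.80 ± 0.19 against CON; -1.05 ± 0.19 against KD, adjusted p = 0.0311). Dcn, the collagen-binding proteoglycan decorin, had 23.6, 25.2, 36.8 and 81.4 TPM in CON and 2.67, 3.23, 2.77 and 4.11 TPM in RE (-3.18 ± 0.33, adjusted p = 8.84e-05). All 3 genes had their lowest mean in RE. With the length correction RE minus CON was -0.80 for Fn1 and -1.07 for Col1a1, and both were still called. The comparison with KD was not length corrected. Among the rises, Col11a1, a minor fibrillar collagen, had 1.25, 1.42, 1.46 and 0.544 TPM in CON and 4.23, 17.2, 5.4 and 10.6 TPM in RE (2.10 ± 0.38, adjusted p = 0.00502). P4ha2, a prolyl hydroxylase that matures collagen, rose by 1.13 ± 0.17, and Loxl1, which cross-links elastin, by 1.30 ± 0.20. Of 28 fibrillar collagen and crosslinking genes 4 rose and 4 fell (7 and 1 after median scaling). The number that fell was 1 without CON 1, CON 2, CON 3, RE 1 or RE 3, and 8 without CON 4.

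Other genes were also lower than in KD. Ttyh3, for a chloride channel-like membrane protein, had 26.1, 21.7, 25.7 and 21.7 TPM in CON, 14.4, 12.6, 10.8 and 9.63 TPM in KD and 2.71, 3.27, 2.99 and 3.57 TPM in RE (-2.58 ± 0.17 against CON; -1.63 ± 0.17 against KD, adjusted p = 0.00263). Vegfc, a growth factor of lymphatic vessels, had 16.2, 15.7, 13.8 and 14.1 TPM in CON, 7.83, 7.74, 6.12 and 5.91 TPM in KD and 1.45, 3, 2.62 and 3.46 TPM in RE (-2.16 ± 0.21 against CON; -1.15 ± 0.21 against KD, adjusted p = 0.0311). Both fell stepwise in mean from CON to KD to RE. Sybu, for syntabulin, a microtubule-based transport linker, stood at 35.2, 32.7, 19.1 and 30.1 TPM in KD (-0.22 ± 0.26 against CON, adjusted p = 0.696) and at 6.76, 14, 8.39 and 10.8 TPM in RE (-1.70 ± 0.26 against CON).

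Wnt pathway genes moved in both directions. Of 25 tested, 4 rose and 7 fell (11 fell without CON 4). The ligand Wnt4 had 7.74, 9.4, 7.14 and 16 TPM in CON and 0.514, 0.129, 0.446 and 0.513 TPM in RE (-2.93 ± 0.23, adjusted p = 7.11e-06). The ligand Wnt7b had 6.03, 6.85, 7.24 and 3.88 TPM in CON and 0.131, 0.288, 0.17 and 0.0344 TPM in RE (-2.57 ± 0.18, adjusted p = 2.31e-06). The ligand Wnt10b (-1.61 ± 0.32), the receptor Fzd6 (-2.05 ± 0.39) and the antagonist Dkk2 (-2.15 ± 0.16) also fell; with CON and RE fitted alone Wnt10b was not called (adjusted p = 0.0572). Wnt10a fell by 1.07 and Fzd4 by 1.70 on the log2 scale; the first call was lost without CON 3, RE 1 or RE 4 (adjusted p of 0.0623 to 0.0882), after median scaling (0.157) and with the length correction (0.129), the second when any library other than CON 4, KD 2, KD 3 or RE 4 was left out (0.0539 to 0.124). Among the rises were 2 secreted antagonists: Sfrp1 had 16.7, 17.5, 12.7 and 8.99 TPM in CON and 41.7, 85, 66 and 54.3 TPM in RE (2.06 ± 0.25, adjusted p = 0.000309), and Sfrp2 rose by 2.40 ± 0.19. The ligand Wnt5b (1.03 ± 0.19) and the R-spondin Rspo2, which amplifies Wnt signals (1.37 ± 0.20), rose too.

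Of 39 BMP, TGF-beta and activin genes 4 rose and 4 fell, against 2.7% and 3.63% of all tested genes; 23 fell without CON 4, against 42% of all, and 2 rose without CON 1, CON 2, CON 3 or RE 3. The ligand Bmp4 had 92.9, 98.5, 112 and 94.5 TPM in CON and 42.4, 54.9, 40.5 and 48.4 TPM in RE (-1.09 ± 0.15, adjusted p = 0.000735), and Bmp5 fell by 2.92. The activin antagonist Fst rose by 1.28 ± 0.24. Of 10 skeletal muscle genes 4 fell (7 without CON 4) and none rose: Chrnd and Chrna1, subunits of the acetylcholine receptor, Acta1 (adjusted p = 0.0597 with CON and RE fitted alone), and Myod1, the myogenic factor. Myod1 had 8.18, 5.68, 7.27 and 4.27 TPM in CON and 0, 0, 0.133 and 0 TPM in RE (-2.80 ± 0.18, adjusted p = 1.3e-06), and Chrnd had 14, 14.6, 16.8 and 5.3 TPM in CON and 0.226, 0.166, 0.157 and 0.0793 TPM in RE (-3.46 ± 0.27). None of the 8 tested sarcomere and Z-disc genes passed the limma test (2 higher and 1 lower at an unadjusted p below 0.05; 1 higher and 1 lower after median scaling).

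Bves and Popdc3, cAMP-binding membrane proteins of the Popeye family that modulate heart rhythm, stood between KD and CON. Bves had 53.8, 65.2, 50.5 and 40.8 TPM in CON, 5.14, 4.47, 7.08 and 4.28 TPM in KD and 16.7, 15.7, 15.1 and 19.4 TPM in RE. RE was -1.58 ± 0.20 against CON (adjusted p = 0.000309) and 1.52 ± 0.20 above KD (adjusted p = 0.00611). Popdc3 had 83.3, 82.4, 78.4 and 52.2 TPM in CON, 11.7, 12.1, 14 and 14 TPM in KD and 34.5, 33.8, 22 and 31.9 TPM in RE (-1.25 ± 0.20 against CON; 1.16 ± 0.20 above KD, adjusted p = 0.026). No library of one group reached another group for either gene.

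Of the 38 tested genes of glycolysis and the hypoxia response, 8 were higher and 2 lower (13 and 3 after median scaling; 4 rose without CON 1, CON 2, CON 3 or RE 2, 5 without RE 1 or RE 4, and 17 without CON 4). Ldhb, a lactate dehydrogenase subunit, had 2.24, 1.22, 2.7 and 2 TPM in CON and 12, 12.4, 18.6 and 11.2 TPM in RE (2.26 ± 0.23, adjusted p = 7.61e-05). Slc16a3, the lactate exporter MCT4, went the other way, with 60.7, 53.3, 61.6 and 99.8 TPM in CON and 7.59, 7.28, 10.4 and 8.03 TPM in RE (-2.87 ± 0.21, adjusted p = 3.15e-06). The groups were apart for both. Of 37 fatty acid genes 3 rose (6 without CON 4) and none fell: Fabp4, Fabp5 (1.07 ± 0.17) and Lpl, the lipoprotein lipase (1.29 ± 0.25). Of 41 NRF2 and glutathione genes 5 rose and 3 fell (14 and 8 without CON 4; 3 rose without CON 1, CON 2 or CON 3), including Gsta3, a glutathione transferase, with 30.4, 30.8, 34.3 and 38.2 TPM in CON and 2.68, 3.58, 3.43 and 2.63 TPM in RE (-3.08 ± 0.21, adjusted p = 2.31e-06).

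Calls among genes of the centrosome, of JNK signalling and of the cell cycle are given beside the 2.7% of all tested genes that were higher and the 3.63% that were lower. Of 56 partners, microcephaly genes and other centrosome genes 1 fell, Wdr62, and none rose; 20 were lower and none higher at an unadjusted p below 0.05 (20.2% of all tested genes were lower at that threshold), and 26 fell without CON 4, RE 1 and RE 3 (24% of all). Of 31 genes of the JNK cascade 1 fell, the phosphatase Dusp22, with 11.8, 9.41, 10.1 and 12.1 TPM in CON and 3.84, 3.04, 2.15 and 4.04 TPM in RE (-1.49 ± 0.19, adjusted p = 0.000402). Without CON 4 these counts were 35 and 20, with 42% of all tested genes lower. None of 55 DNA replication genes passed the limma test (6 lower at an unadjusted p below 0.05; 1 higher after median scaling and 13 lower without the 3 libraries), and none of 49 mitotic genes did (1 higher and 13 lower unadjusted; 1 lower after median scaling, 1 higher and 16 lower without the 3 libraries). In KD against CON 8 and 4 of these genes were lower, against 3.61% of all tested genes.

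For contrast, some genes that had changed in KD differed from KD in RE, in the direction of control, and were not called against CON. Birc5, the mitotic protein survivin, had 282, 261, 236 and 355 TPM in CON, 135, 125, 213 and 157 TPM in KD and 422, 246, 292 and 372 TPM in RE. It differed from CON by 0.22 ± 0.21 (95% interval -0.24 to 0.68, adjusted p = 0.46). Mmp3, the protease stromelysin-1, had 5.04, 2.72, 5.24 and 5.53 TPM in CON, 17.9, 23.3, 41.6 and 17.7 TPM in KD and 3.46, 5.62, 4.93 and 5.36 TPM in RE (0.07 ± 0.29 against CON, interval -0.56 to 0.70). The RE libraries of both overlapped CON and not KD. Mark1, a microtubule affinity kinase (3.06 ± 0.40 in KD, 0.99 ± 0.40 in RE), Stc1, a secreted stanniocalcin (2.63 ± 0.43 and 0.49 ± 0.43), and Lctl, a lactase-like protein (2.29 ± 0.31 and 0.83 ± 0.31), had risen in KD and did not pass the test in RE. Haus1, a subunit of the augmin complex (-0.89 ± 0.15 and -0.03 ± 0.15), Ten1, of the telomere-capping CST complex (-0.99 ± 0.17 and -0.14 ± 0.17), and Glrx3, a glutaredoxin (-0.92 ± 0.24 and 0.56 ± 0.24), had fallen in KD and did not pass it in RE. The 95% intervals of RE minus CON excluded 0 for Mark1 (0.11 to 1.87), Lctl (0.16 to 1.51) and Glrx3 (0.02 to 1.09), and included it for Stc1 (-0.44 to 1.43), Haus1 (-0.36 to 0.29) and Ten1 (-0.51 to 0.24). Mark1 was called as higher than CON with the length correction (adjusted p = 0.0349), and Lctl and Glrx3 without CON 4 (0.0046 and 0.0298). The signs for Haus1 and Ten1 turned positive after median scaling, at 0.27 and 0.17.

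**Figure D4:**
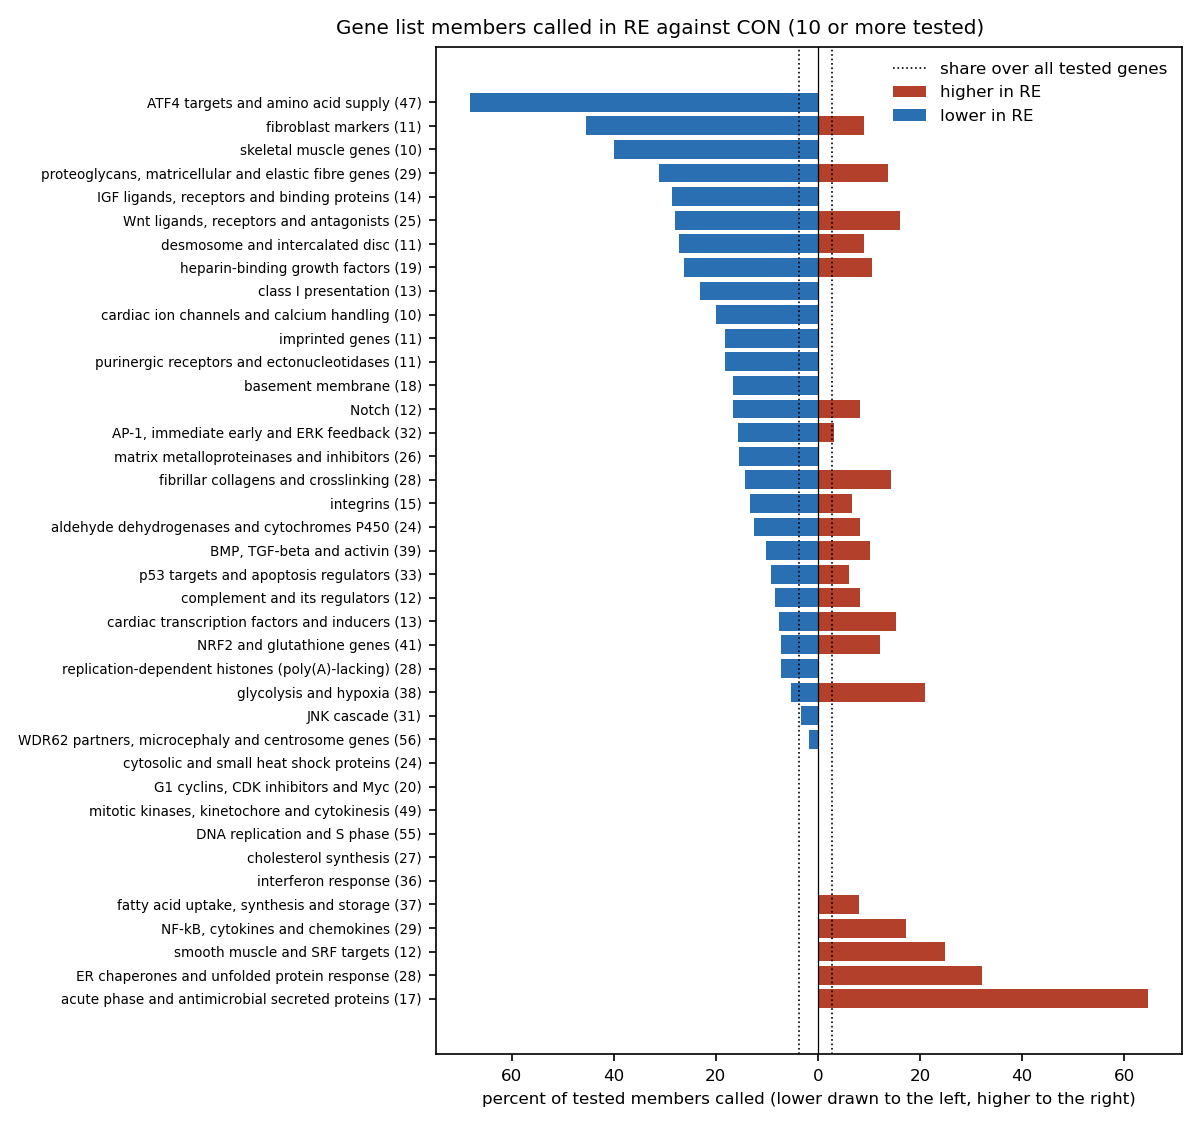
Share of the tested members of each gene list (rows, with the number tested) that were lower (bars to the left) or higher (bars to the right) in RE than in CON at an adjusted p below 0.05, in percent, for lists with 10 or more tested members. Dotted lines mark the shares over all tested genes, 3.63% lower and 2.7% higher; the ATF4 list reaches farthest to the left and the acute phase list farthest to the right.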

How the data were processed

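RNA of 12 HL-1 libraries was sequenced on Illumina libraries made from TRIzol extracts, per the labels' protocols. Reads were handled with Trim Galore 0.6.6, Cufflinks 2.2.1 and TopHat2 2.1.1, with genome build mm10, per the submitters' processing notes; annotation and strand use are not given in the sources used here. The authors deposited 1 table of TPM for 23184 gene rows. Each column sums to 1000000, so depth is unknown and no counting interval is given; 6088 rows are listed at 0 throughout. The control columns are named WT, the genotype the labels give to CON.

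Testing covered the 11774 rows averaging 1 TPM or more, on log2(TPM + 1), which understates changes of low genes, with limma 3.58.1 in R 4.3.3 (12 libraries, 1 mean per group, moderated two-sided test with a mean-variance trend, Benjamini-Hochberg adjustment). The procedure was tested on simulated data. Named genes are Wdr62, the 15 largest rises and falls with groups apart, up to 5 in each direction that also changed against KD (1 rise and 5 falls qualified), 4 in each direction that changed in KD, differed from KD in RE the opposite way and were not called against CON, and up to 4 changed members (mean of at least 1 TPM) of each of 46 lists; the first sets need a mean of 5 TPM. Other list members are named for their role, after their values were seen, and some genes that the rule names are not reported here. The comparison, lists and rule were chosen with earlier results of these data known. RE against CON and KD against CON share the CON libraries, and RE against KD shares the RE libraries, so values stand side by side. Lengths, overlaps and gene coordinates are from GENCODE vM21 on GRCm38, with a length for 11338 tested rows. Alternatives were other pseudocounts, filters, scalings, a length correction (loess, span 0.5), array weights, a replicate block, and leaving out libraries.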

Additional observations from a re-analysis of the deposited data

Results flagged for a closer look

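A library was set apart where its gap to the nearest of the other 3 took most of the range of its group, past the 95% critical value of Dixon's test. This was so for 33 of 270 groups examined, and chance gives about 1 in 20. Most are CON 4.

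In CON 4 genes below the other controls were Ptn at 16.3 TPM (others 44.5 to 48.7), Igfbp5 at 158 TPM (565 to 624), Cyp4f40 at 18.6 TPM (28.6 to 30.6), Sulf1 at 7.0 TPM (23.6 to 27.5), Apcdd1 at 5.76 TPM (up to 22.7), Fn1 at 984 TPM (2299 to 2502), and Popdc3 at 52.2 TPM (78.4 to 83.3). The muscle receptor subunits Chrnd and Chrna1 stood at 5.3 and 8.27 TPM there, and the laminin Lama2 at 3.06 TPM against 11.8 to 14.3. The adhesion genes Itga6 and Jup had 13.1 and 8.67 TPM. The signalling genes Irs1, Bmp5 and Inhbb had 7.54, 2.46 and 14.1 TPM. The glycine transporter Slc6a9 had 42.4 TPM, Vldlr 5.23 TPM, the retinoic acid hydroxylase Cyp26b1 2.72 TPM, Sesn2 14.7 TPM, the factor Klf4 23.4 TPM (others 101 to 127) and the histone Hist1h1b 1.43 TPM.

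Above the other controls in CON 4 were Hcar2 at 6.56 TPM (0.825 to 1.1), the endoplasmic reticulum genes Creld2 at 387 TPM (143 to 160) and Manf at 251 TPM (106 to 121), and Gstm2 at 72.7 TPM (31.5 to 34.9). In other libraries Scara5 was low in CON 1 (13.3 TPM), Mmp3 low in CON 2 (2.72 TPM) and Cyp4v3 high in CON 2 (1.6 TPM). Among RE libraries Orm1 (72.2 TPM), Mfap5 (192 TPM) and Myod1 (0.133 TPM, the others listed at 0) were high in RE 3. Atf3 was high in RE 2 (5.59 TPM, others 2.7 to 2.85) and Wnt4 low there (0.129 TPM, others 0.446 to 0.514).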

How the results depend on the processing

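Wdr62 was below CON and called in each of the 23 alternatives that include it (fold changes -2.19 to -1.02); a filter of 5 TPM removes it. Over the 12 fits that each leave out 1 library, the number of changed genes ran from 417 to 6219, that of higher genes from 161 to 1273 and that of lower genes from 256 to 4946. Numbers of changed, higher and lower genes were 409, 153 and 256 with CON and RE alone, 6386, 1442 and 4944 with array weights, 452, 214 and 238 with a filter of 5 TPM, 1504, 899 and 605 with the length correction, and 3781, 957 and 2824 without CON 4, RE 1 and RE 3. Quantile normalization gave 1178 changed and 672 higher, median-of-ratios scaling 595 higher, a minimum fold change of 1 (log2) 187 higher, and no TPM filter 698 lower, with more rows tested. The cause of these shifts was not tested.

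The replicate numbers were not taken as pairs. Deviations of same-numbered CON and RE libraries correlated at -0.20, 0.54, -0.50 and -0.71. Those of CON and KD correlated at 0.48, 0.58, -0.52 and 0.44, and those of KD and RE at -0.55, 0.65, 0.24 and -0.25. Whether libraries of the same number share a culture or a batch was not tested. With the replicate number as a block 188 genes were higher and 518 changed, and with the block and the length correction 602 were higher.

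Of the 127 called genes among the 135 named, 86 were called in every alternative that adds no minimum fold change. Signs reversed, none of them called, for Mmp3 without CON 2 (-0.12, in a range of -0.12 to 0.20 over single libraries left out), for Ten1 (0.17 with median-of-ratios scaling, 0.15 with quantile normalization) and for Haus1 (0.27 and 0.19 with the same scalings; 0.00 without RE 3 and 0.05 without RE 2, in a range of -0.10 to 0.05). Depth is unknown, and 4 libraries a group limit the precision.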

Other observations

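In the median, genes of chromosomes 6 and 19 lay above the rest of each RE library, though not along the whole of either chromosome. For each library, the median deviation of a chromosome's genes from their CON mean was taken relative to the library's median. On chromosome 19 (407 tested genes) it was 0.326, 0.259, 0.341 and 0.229 in RE and 0.165, 0.141, 0.266 and 0.205 in KD, against -0.0474 to 0.0951 in CON. On chromosome 6 (553 tested genes) it was 0.216, 0.247, 0.263 and 0.227 in RE and 0.163 to 0.230 in KD, against -0.0277 to 0.0255 in CON. RE and CON did not overlap for either chromosome, whereas RE and KD did. Of the 20 chromosomes examined, chromosome 10 also had all RE libraries above all CON libraries, at 0.0563 to 0.112. Of the tested genes of chromosomes 19 and 6, 7.86% and 7.41% rose in RE, against 2.7% of all tested genes. After the length correction the medians of RE minus CON were 0.26 and 0.23. Along chromosome 19 the scaled median was 0.48 in the first 20 Mb (209 genes, 81.3% above 0), and along chromosome 6 it was 0.26 to 0.36 in each 20 Mb bin from 40 to 140 Mb. Elsewhere on chromosome 6 it was -0.24 from 0 to 20 Mb, -0.00313 from 20 to 40 Mb and 0.07 from 140 to 160 Mb. The later bins of chromosome 19 stood at 0.02 (20 to 40 Mb), 0.155 (40 to 60 Mb) and 0.09 (60 to 80 Mb).

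Acta2, the smooth muscle actin, divided the RE libraries, with 1386 and 1433 TPM in RE 1 and RE 4 and 279 and 263 TPM in RE 2 and RE 3, around CON values of 476 to 1029 TPM. Tagln, another contractile gene, followed the same division, at 46.9 and 44.8 TPM against 10.3 and 10.2 TPM. The related Actg2 had 110, 24.6, 28.1 and 98 TPM in RE and 6.02 to 16.9 TPM in CON. Not every smooth muscle gene divided the RE libraries this way. Cnn2 was higher in RE 2 and RE 3, with 396, 484, 429 and 403 TPM in RE. Lmod1 was lowest in RE 1 and highest in RE 2, at 9.09 and 19.8 TPM. Cnn1 had 4.44, 2.48, 3.99 and 4.59 TPM in RE, with RE 3 close to RE 1.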
